A study of Mus musculus with 12 samples.

Results

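Gene-end regions that were open in every library are described here. They are stretches of accessible chromatin whose centre lay within 1 kb of either end of a protein-coding gene and that were called as a peak in all 12 ATAC-seq libraries of the series. Overlapping peaks of the 12 lists were merged into 153346 regions of the mouse genome (GRCm38, chromosomes 1 to 19 and X). Of these, 5784 were called in all 12 libraries, and 4491 of those were gene-end regions, which is 2.93% of all regions and 77.6% of the regions called everywhere. The members were thus chosen by their calls, and their being called in each library is the rule and not a result.

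ATAC-seq uses a transposase to insert sequencing adapters into accessible DNA; here the cells were lysed with digitonin in the reaction. The cells are labelled MSCLCs, and the series title speaks of bone mesenchymal stem cells, YAP1, IGF-1 and EWS::FLI1, the gene fusion that drives Ewing sarcoma. The genotype label gave 5 groups: EF_IGF1_xeno (n = 1, line S_221), EF_IGF1 (n = 2, lines S_220 and S_221), EF (n = 4, replicates 1 and 3 of line S_220 and replicates 2 and 4 of line S_221), Wt_IGF1 (n = 1, line BM) and Wt (n = 4, lines WT_1, WT_2, BM and S_203). The labels do not spell out EF, IGF1 or xeno, give no dose, time or age, and do not say what drives an EF transgene; the design text names EFPrx1, ha-EFPrx1 and hr-EFPrx1 cells without tying them to these groups. Flowcell BSF_0654 held replicates 1 and 2 of EF and of Wt, and flowcell BSF_1013 held the remaining 8 libraries. Nothing says that replicates came from separate animals, and the 4 EF libraries hold 2 lines, so p-values measure the spread between these libraries, which may be technical.

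Open chromatin at the end of a gene mostly marks its promoter, where transcription factors and RNA polymerase II keep DNA free of nucleosomes. Promoters of genes that every cell uses tend to lie in CpG islands, stretches rich in G, C and unmethylated CpG that are accessible in most cell types. Promoters of genes for specialised functions more often lack such islands, and are opened only in the cells that use them. An open promoter does not show that the gene is transcribed.

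The base composition of the members' promoters was read from RefSeq sequences of GRCm38.p6, from 250 bases before to 50 bases after an annotated start. The table held 4826 promoters of 4248 of the genes marked by a member, that is, genes with an end within 1 kb of a member's centre. Promoters of marked genes had a median GC content of 63.3%, against 60.0% for genes whose gene-end region was called in 1 to 11 libraries and 48.7% for genes with none. The ratio of observed to expected CpG was 0.844 in the median promoter of marked genes, 0.694 for genes called in 1 to 11 libraries and 0.219 for genes with no call. Of the promoters of marked genes, 89.0% had a ratio above 0.6, against 61.2% and 12.2% in those sets. Of all 21045 promoters of protein-coding genes that the table held, 48.1% did. They belong to 17274 of the 21631 protein-coding genes, with none on chromosome 18, and shares of all promoters refer to them. The rule did not use sequence, and these shares are a description with no test.

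Motifs of factors that bind many promoters were found in more promoters of marked genes than of all genes, and the TATA box in fewer. Each motif was searched on both strands over the 300 bases. GGGCGG, bound by SP and KLF factors, was found in 75.1% of the promoters of marked genes and 46.7% of all promoters. CCGGAA, the core bound by ETS factors, stood in 36.8% against 18.9%, and GCGCANGCG of NRF1, a factor of mitochondrial and other nuclear genes, in 19.8% against 8.65%. CCAAT of NF-Y was found in 45.3% against 38.5%, CACGTG, the E-box, in 11.7% against 7.91%, and AAGATGG of YY1 in 8.41% against 6.28%. TGACGTCA, bound by CREB and ATF, occurred in 4.08% against 2.26% and ACTACAANT of ZNF143 in 3.81% against 1.98%. TATAAA of the TATA box was found in 4.75% of the promoters of marked genes, against 12.7% of all and 21.4% of those with no call. The AP-1 site TGANTCA stood in 3.52% against 7.04% of all, and GGAATG, bound by TEAD factors, the partners of YAP1, in 9.64% against 13.5%. GGAAGGAA, a short form of the GGAA repeats that EWS::FLI1 binds in human cells, was found in 2.98% against 3.46%. The NF-Y share was 33.3% for genes called in 1 to 11 libraries and 38.9% for those with no call, so it did not rise steadily with the calls. Promoters of marked genes were richer in GC (median 63.3% against 56.7% of all) and in CpG (ratio 0.844 against 0.574). The part of base composition in these motif shares was not tested. The ETS, TEAD and repeat motifs all hold GGAA and can overlap. A match is a description and not a bound site.

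**Figure D1:**
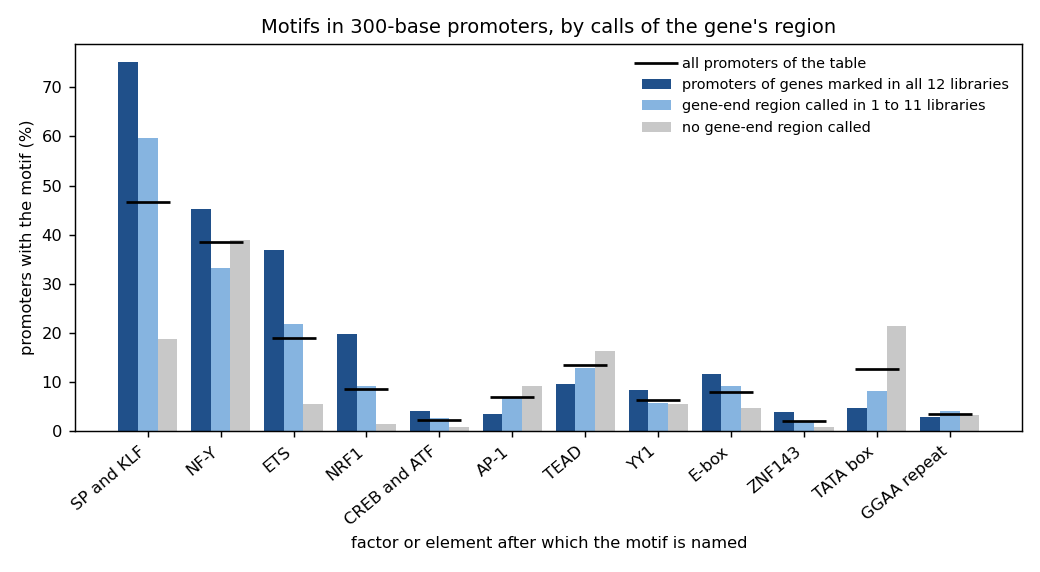
Share of 300-base RefSeq promoters (y axis, %) with each motif (x axis, named by factor), for genes marked in all 12 libraries, genes with a gene-end region called in 1 to 11 libraries, genes with none, and all promoters of the table (black line). The share with the SP and KLF motif was 75.1% for marked genes and 18.8% for genes with no call, and that with the TATA box ran the other way, 4.75% against 21.4%.

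To show such sequences, 6 promoters that lie wholly inside a member region are printed, each from a gene with a highly ranked region that holds the motif in question. Each is the 250 bases before the RefSeq start, 5′ to 3′ on the gene's strand, and capitals mark the match of that motif only, on either strand. The promoter of Kbtbd8, an adaptor of a ubiquitin ligase (chr6:95117630-95117879, plus strand), holds the SP and KLF motif. That of Prkaca, the catalytic subunit of protein kinase A (chr8:83972728-83972977, plus strand), holds the ETS core. The promoter of Wdr89 (chr12:75669538-75669787, minus strand) has the NRF1 motif and that of Trim26 (chr17:36836896-36837145, plus strand) the CREB and ATF motif. The promoter of Lman2, a cargo receptor of the secretory pathway (chr13:55362784-55363033, minus strand), holds the ZNF143 motif. That of Tasp1, the protease that cleaves MLL proteins (chr2:140066806-140067055, minus strand), holds the E-box.
Kbtbd8 promoter: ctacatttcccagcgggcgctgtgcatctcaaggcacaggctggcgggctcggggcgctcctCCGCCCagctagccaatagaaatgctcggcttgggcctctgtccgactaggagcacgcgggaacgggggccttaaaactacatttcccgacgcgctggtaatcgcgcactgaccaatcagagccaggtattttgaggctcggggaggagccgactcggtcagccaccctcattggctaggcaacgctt
Prkaca promoter: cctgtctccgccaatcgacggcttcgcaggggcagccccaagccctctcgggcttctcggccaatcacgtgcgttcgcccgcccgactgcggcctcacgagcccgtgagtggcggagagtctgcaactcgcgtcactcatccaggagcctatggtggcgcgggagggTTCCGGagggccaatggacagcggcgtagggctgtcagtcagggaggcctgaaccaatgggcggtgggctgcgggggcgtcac
Wdr89 promoter: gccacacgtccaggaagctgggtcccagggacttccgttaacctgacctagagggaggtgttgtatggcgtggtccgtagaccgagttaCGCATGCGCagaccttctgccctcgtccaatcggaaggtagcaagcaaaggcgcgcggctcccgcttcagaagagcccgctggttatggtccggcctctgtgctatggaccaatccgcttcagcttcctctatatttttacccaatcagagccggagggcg
Trim26 promoter: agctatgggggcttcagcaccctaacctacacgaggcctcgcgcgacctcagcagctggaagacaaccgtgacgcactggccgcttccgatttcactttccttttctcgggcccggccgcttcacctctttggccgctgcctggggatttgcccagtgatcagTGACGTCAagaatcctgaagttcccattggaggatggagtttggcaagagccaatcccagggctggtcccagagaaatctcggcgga
Lman2 promoter: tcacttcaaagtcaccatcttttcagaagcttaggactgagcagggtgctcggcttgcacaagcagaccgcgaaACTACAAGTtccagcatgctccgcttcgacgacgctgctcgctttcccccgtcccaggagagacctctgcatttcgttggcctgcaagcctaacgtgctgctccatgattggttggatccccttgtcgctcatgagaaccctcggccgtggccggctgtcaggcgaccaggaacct
Tasp1 promoter: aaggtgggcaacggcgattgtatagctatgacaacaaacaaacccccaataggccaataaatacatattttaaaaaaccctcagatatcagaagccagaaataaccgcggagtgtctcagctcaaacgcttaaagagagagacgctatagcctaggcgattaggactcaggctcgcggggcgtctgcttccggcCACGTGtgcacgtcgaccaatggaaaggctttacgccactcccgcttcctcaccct
The marked motifs began between -188 bp (Kbtbd8) and -56 bp (Tasp1) from the start.

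The choice of members rested chiefly on Wt replicate 1, which listed 7748 peaks, while the other libraries listed 27332 (EF replicate 2) to 83718 (Wt_IGF1). Just outside the rule lay 2703 gene-end regions called in 11 libraries, and Wt replicate 1 was the library without a call in 2418 (89.5%) of them. EF replicate 2 lacked the call in 124 and Wt replicate 3 in 144. With Wt replicate 1 left out, 6909 gene-end regions were called in all the others; leaving out any other library gave 4486 to 4635. A member therefore had to be called in a short list, and 60.7% of the peaks of Wt replicate 1 lay in members, against 6.63% to 18.9% in the others. The lists carry no read totals, so depth is unknown, and the number of peaks is given in its place. The members' median fold over background was also lowest in Wt replicate 1, at 5.43 against 8.53 to 11.4 in the others. What made this list short was not tested. At the distance limit, 24 members had centres 900 to 1000 bp from a gene end (median called width 1008.8 bp), and 29 regions called in all libraries lay at 1000 to 1100 bp (980.5 bp).

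The line of 1 library was in doubt. EF_IGF1 replicate 1 is titled line S_220, but at the Cdkn2a start, which lies outside the members, it had no call, like the 4 libraries of line S_221 and unlike both EF libraries of line S_220. Over the members its called widths correlated with those of EF_IGF1 replicate 2 at a Spearman rho of 0.869 and of EF replicate 4 at 0.815, both of line S_221, and of EF replicate 3 of line S_220 at 0.636. On the other flowcell the order was the opposite, with 0.450 for EF replicate 2 of line S_221 and 0.558 for EF replicate 1 of line S_220. EF_IGF1 replicate 2, of line S_221, gave the same order with these libraries, 0.476 and 0.602. EF replicate 2 had the fewest peaks of the EF libraries. The width correlations thus do not tell the line, and the doubt rests on the Cdkn2a call. EF_IGF1 replicate 2 and EF_IGF1_xeno lacked that call too. With 1 EF_IGF1 library titled as S_220, a wrong title and an absence shared by the EF_IGF1 group cannot be told apart. Results on EF_IGF1 include this library under its label. Without it limma, on widths, also called 0 members between EF_IGF1 and EF, with 10 wider and 7 narrower at an unadjusted p under 0.05. Of 15 mesenchymal marker genes, Wt replicate 1 called gene-end regions of 1, Wt replicate 2 of 7 and the others of 9 to 11. Of 15 hematopoietic markers, such regions were called for 10 genes in Wt replicate 2 and 3 to 9 in the others. In Wt replicates 1 and 2 alone, more hematopoietic than mesenchymal markers were called. Endothelial, muscle, epithelial and neural markers reached at most 3 genes of their lists in any library. Of all gene-end regions, Wt replicate 1 called 30.1%, Wt replicate 2 71.7% and the others 47.9% to 75.6%.

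Being near a gene end went together with being called widely. Of the regions called in 1 library, 5.31% were gene-end regions, of those called in 11 libraries 38.8%, and of those called in 12 libraries 77.6%. The median called width of gene-end regions, that is, the bp of a region covered by peaks of a library, was 272 bp for those called in 1 library, 753 bp for those called in 11 and 878.5 bp for the members. These values follow the calls that chose the members and are a description.

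The members lay at starts of genes. Their centre was a median of 164 bp from the nearest gene end, and 3087 (68.7%) lay within 250 bp and 4137 (92.1%) within 500 bp. Strand was known for 17274 of the 21631 protein-coding genes. Of the 3652 members whose neighbouring genes all had a known strand, 3631 (99.4%) lay near a start, and 21 near only a finish. Among the gene-end regions called in 1 to 11 libraries, 7070 of 9303 (76.0%) lay near a start. Divergent pairs, in which genes on opposite strands start from a shared stretch, made up 390 of the 3652 (10.7%), against 206 of 9303 (2.21%). Members between divergent starts had a median width of 943 bp, and those near ends of 1 gene 867.5 bp.

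Within the members, peak summits sat just before the start. The 3750 members (83.5%) with a RefSeq promoter-table start within 1 kb of the centre had a median summit at -62 bp, and 70.2% had it before the start. By library the median summit lay between -77 bp (Wt replicate 3) and -53 bp (EF replicate 4), with EF_IGF1_xeno at -56 bp, EF_IGF1 at -70 and -65 bp, EF at -53 to -64 bp, Wt_IGF1 at -73 bp and Wt at -56 to -77 bp. The ranges of EF and Wt overlapped. Across the 12 libraries the summit of a member moved over a median range of 168 bp (quartiles 110 and 363 bp). Reads were single-end and no source states whether they were shifted for the transposase, which limits how finely such offsets can be read.

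**Figure D2:**
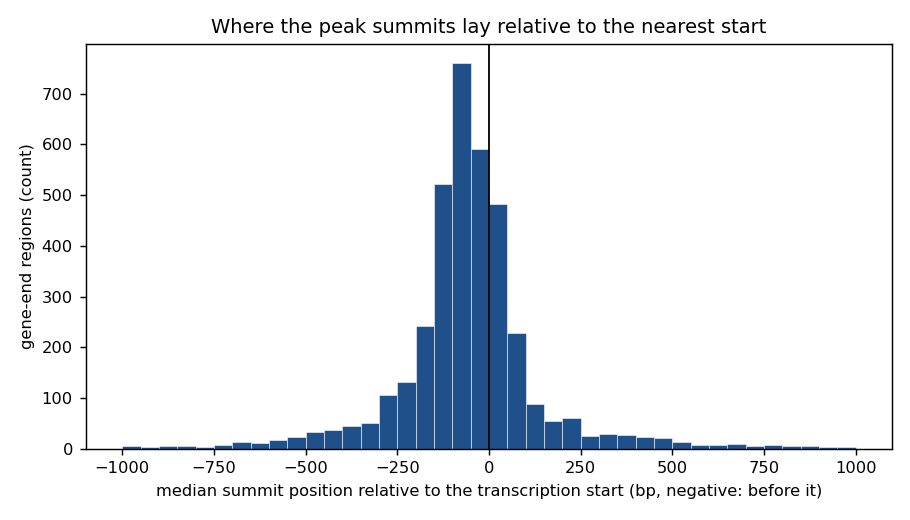
Number of members (y axis) by the position of the median summit over 12 libraries relative to the nearest RefSeq start (x axis, bp, negative before the start, bins of 50 bp). The distribution of the 3750 members peaks just before the start, with a median at -62 bp.

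The members marked 5352 of 21631 protein-coding genes (24.7%). With the calls of the 11 libraries other than Wt replicate 1, gene-end regions marked 7956 genes (36.8%), and 7363 genes (34.0%) had no gene-end region in any library. Marked genes had a median length of 23641 bp against 15250 bp for the rest. Between 20.3% (chromosome 7) and 29.8% (chromosome 8) of the genes of each autosome were marked. On the X chromosome 89 of 966 genes (9.21%) were marked, by 78 regions.

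Genes of machinery that all cells run were marked most often, at shares above the 24.7% of all genes. All 9 genes of the CCT chaperonin, which folds actin and tubulin, were marked. So were 26 of 37 genes of DNA replication, 13 of 20 aminoacyl-tRNA synthetases and 43 of 86 cytosolic ribosomal proteins. Of the 70 genes listed as translation initiation and elongation factors 43 were marked, and that list also holds the kinase Eif2ak3. Of the transcription machinery, 20 of 39 genes of RNA polymerase II and its general factors, 17 of 30 Mediator genes and 20 of 36 spliceosome genes were marked. Among chromatin regulators the counts were 20 of 30 histone acetyltransferases, deacetylases and Polycomb genes and 10 of 19 SWI/SNF genes. With the 11 libraries other than Wt replicate 1, these shares were 83.8% for DNA replication, 79.1% for cytosolic ribosomal proteins, 76.7% for the acetyltransferase, deacetylase and Polycomb list and 68.4% for SWI/SNF, against 36.8% of all genes.

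Mitochondrial and membrane-traffic genes were also marked above the share of all genes. The counts were 24 of 49 for respiratory complex I and its assembly factors, 17 of 35 for complexes III and IV, 10 of 17 for ATP synthase and 35 of 78 for mitochondrial ribosomal proteins. Coat proteins of vesicles had 17 of 28 genes marked, the proteasome 20 of 39 and the vacuolar ATPase, the proton pump of lysosomes, 9 of 23. Cyclins, their kinases and tumour suppressors had 14 of 31. Zfp zinc finger genes, many of them repressors of transposons, had 127 of 397 (32.0%), and solute carriers 86 of 375 (22.9%), close to all genes. Replication-dependent histones, which are clustered and nearly identical copies of each other, had 24 of 62 genes at 14 regions; reads of such copies can be assigned to the wrong gene, so this count is uncertain.

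Single genes show how such regions look. Tcp1, a CCT subunit, had a region centred 5 bp from its start with a median called width of 981.5 bp over libraries (lowest 543, highest 1306). Orc2 of the origin recognition complex had 790.5 bp (285 to 1482), and Gins2, of the helicase that unwinds origins, 854 bp (522 to 1229). Rpl27 of the large ribosomal subunit had 667 bp (416 to 842) and Eif5, which triggers start codon recognition, 943.5 bp (528 to 1522). These spans show that the width at a given gene moved by more than 2-fold over the libraries, in every case named here. The catalytic subunit of Polycomb, Ezh2, had 1319.5 bp (492 to 1516), and Kat7, a histone acetyltransferase, 1211 bp (760 to 1608).

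Genes that define cell types were hardly marked, against 24.7% of all genes. Of 15 mesenchymal markers only Vim, the intermediate filament of mesenchymal cells, was marked, with 1305 bp (653 to 1931). Of 25 osteogenic and chondrogenic genes only Atf4, of 17 adipogenic genes only Cebpd, and of 30 extracellular matrix genes only Lamc1 and Thbs1 were marked. Among 44 collagens the marked gene was Col23a1, whose finish lay 809 bp from a region 80 bp from the start of Phykpl. None of 39 HOX genes was marked, although 33 had a gene-end region in at least 1 library and Hoxa3 in 11. No hematopoietic, endothelial, muscle, epithelial or neural marker, keratin or olfactory receptor gene was marked (of 15, 9, 7, 7, 8, 53 and 1107 genes). The 1 marked vomeronasal receptor of 353, Vmn1r4, starts 28 bp from the centre of a region 66 bp from the start of Nt5c3. Without Wt replicate 1, 4 of 15 mesenchymal markers (26.7%), 4 of 44 collagens (9.09%) and 2 of 15 hematopoietic markers (13.3%) were marked, against 36.8% of all genes. The adipogenic list then had 4 of 17 (23.5%), the extracellular matrix list 4 of 30 (13.3%), the osteogenic and chondrogenic list 2 of 25 (8.0%) and HOX genes 1 of 39 (2.56%).

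**Figure D3:**
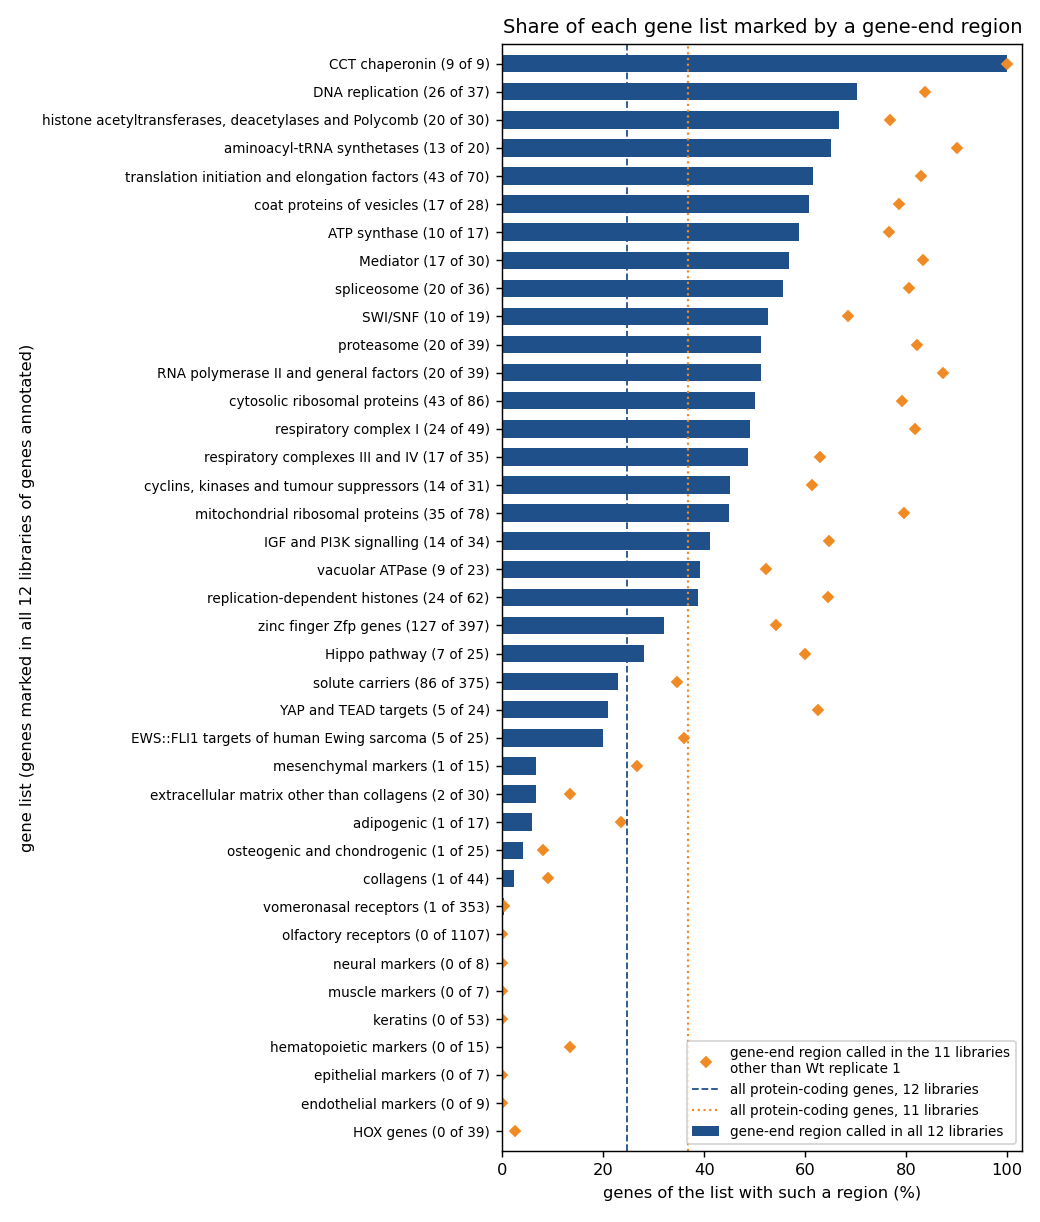
Percent of the genes of each list (x axis) that have a gene-end region called in all 12 libraries (bars) or in the 11 libraries other than Wt replicate 1 (diamonds), with the shares of all protein-coding genes, 24.7% and 36.8%, as vertical lines. Lists of shared cell machinery lie right of the lines, and the bars of cell type markers, collagens, keratins and olfactory and vomeronasal receptors lie at or below 6.67%; the diamonds of these lists reach 26.7% (mesenchymal markers).

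Pathways of YAP1 and IGF-1 were marked at mixed shares, against 24.7% of all genes with 12 libraries and 36.8% without Wt replicate 1. Of 25 genes of the Hippo pathway, which restrains YAP1, 7 (28.0%) were marked, close to all genes, and 15 (60.0%) without Wt replicate 1. Among the 7 were Nf2 (978.5 bp, 442 to 1195) and Stk3 (790 bp, 392 to 933). IGF and PI3K signalling had 14 of 34 (41.2%), and 22 (64.7%) without Wt replicate 1. Among the 14 were Pik3ca (1077.5 bp, 420 to 1535), the catalytic subunit of PI3-kinase, and Mtor (613.5 bp, 230 to 932). Of 24 YAP and TEAD targets 5 were marked, against 15 without Wt replicate 1, which puts the list below the share of all genes with 12 libraries and above it with 11. Gadd45a (1052.5 bp, 313 to 1370) and Birc5 (1088 bp, 239 to 1387) were among the 5. Of 25 EWS::FLI1 targets known from human Ewing sarcoma 5 were marked, and 9 without Wt replicate 1, among them Vrk1 (813 bp, 374 to 955) and Aurka (957.5 bp, 458 to 1224).

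Of 14 genes followed whatever their values, Ewsr1 and Gapdh were marked. The region at the Ewsr1 start had 1428 bp in EF_IGF1_xeno, 1670 and 1917 bp in EF_IGF1, 1153, 584, 1342 and 1999 bp in EF, 1210 bp in Wt_IGF1 and 234, 1475, 910 and 1228 bp in Wt. The widths of EF and Wt overlapped. Igf1r and Myc lacked the call in Wt replicate 1 alone, and Yap1 and Wwtr1 in Wt replicates 1 and 2. Actb shows what a limit on the centre leaves out, since a region called in all 12 libraries overlapped the gene but the nearest centre lay 1195 bp from its annotated end.

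The most strongly ranked members lay at starts of the genes named next. Peaks were ranked within each list by the authors' −log10 p, and a region's rank is the percentile of its best peak. The region between Derl2, of the pathway that clears misfolded proteins from the endoplasmic reticulum, and Mis12, of the kinetochore, had a mean percentile of 99.9 over the 12 libraries. Kbtbd8 (99.8), Fto with Rpgrip1l (99.8), Zfp869 (99.7), Herc2 (99.7), Stt3a (99.6), Prkaca (99.6), Evi5l (99.5), Pwwp2a (99.5) and Scai (99.5) came next. Fto is an RNA demethylase, Rpgrip1l a protein of the ciliary base and Stt3a the catalytic subunit that transfers sugar chains to proteins. The lowest mean percentiles were those of Phf12 (27.5), Cd68 with Eif4a1 (37.0), Ddx51 with Noc4l (37.7), Ubxn2a (39.7) and Pola2 (40.9). The median member had 83.7. Ranks served to make the calls and are a description.

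The widest member was not highly ranked. This member, at Hsp90ab1, the constitutive HSP90 chaperone (chr17:45572394-45574772), had a mean percentile of 43.8. It measured 2185 bp in EF_IGF1_xeno, 2193 and 2323 bp in EF_IGF1, 1265, 229, 1815 and 2310 bp in EF, 1730 bp in Wt_IGF1 and 200, 1926, 549 and 2119 bp in Wt. It thus ranged from the smallest width a list holds, 200 bp, to over 2 kb in the same group. Among the next widest were Fam72a with Srgap2 (median 1854 bp), Mex3b (1818), Sgpl1 (1789), Cnksr3 (1785), Cdca3 with Usp5 (1773), Bivm with Poglut2 (1768), Kmt2e (1754) and Top2b (1746.5). The narrowest were Lin54 of the DREAM complex (295.5), Phf12 (296), Gadd45g (336), Ccdc86 (337.5) and Myl6b (337.5). The middle 50% of members lay between 744.5 and 1038.8 bp.

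Median widths by gene list are given as a description. Members at replication-dependent histones, whose genes are short, had a median of 493.75 bp, those at cytosolic ribosomal proteins 754 bp and those at Mediator genes 779 bp. Members at acetyltransferase, deacetylase and Polycomb genes had 1034.8 bp and at CCT genes 983.25 bp, against 878.5 bp for all members. Width differed less by CpG content: the quartiles of members by promoter CpG ratio had median widths of 841, 880, 903.25 and 900.25 bp from low to high.

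Library by library, the median member was 944 bp wide in EF_IGF1_xeno, 1108 and 1064 bp in EF_IGF1, 752, 569, 855 and 1072 bp in EF, 856 bp in Wt_IGF1 and 372, 947, 625 and 929 bp in Wt. Wt replicate 1, with the fewest peaks, was the narrowest, and EF_IGF1 replicate 1 the widest. The library with the most peaks, Wt_IGF1, had a width within the EF range. The part of depth in these levels was not tested. Across libraries the width of a member relative to its library had a median SD of 0.269 on the log2 scale, and that of the 1293 other regions called in all 12 libraries 0.289.

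**Figure D4:**
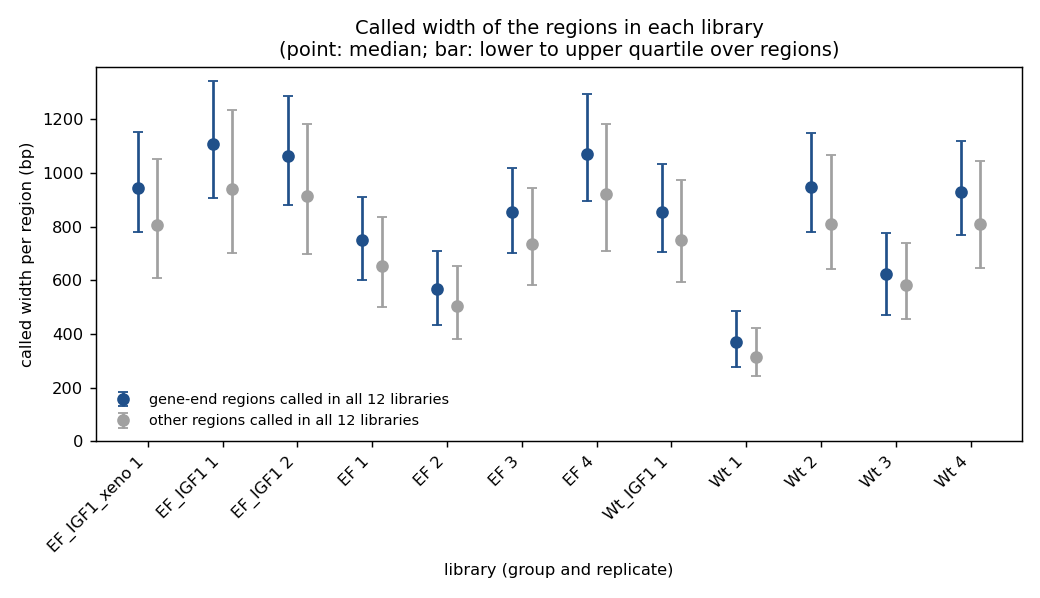
Called width per region (y axis, bp) in each of the 12 libraries (x axis) for the 4491 members and the 1293 other regions called in all 12 libraries; points are medians over regions and bars run from the lower to the upper quartile. The members' median lies above that of the other regions in every library, while the level moves from 372 bp (Wt replicate 1) to 1108 bp (EF_IGF1 replicate 1).

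The members were wider than the other regions called in all libraries. The ratio of the medians was 1.17 in EF_IGF1_xeno, 1.18 and 1.16 in EF_IGF1, 1.15, 1.13, 1.16 and 1.16 in EF, 1.14 in Wt_IGF1 and 1.18, 1.17, 1.07 and 1.15 in Wt. It was above 1 in 12 of 12 libraries, by 0.20 in the mean on the log2 scale (exact two-sided sign-flip permutation test over the 12 libraries, p = 0.000488, the smallest this design gives). Width was not used to choose either set, but libraries of the same line are not independent. The same regions are compared in every library. The p therefore measures how the difference between these sets repeats over libraries, and not whether gene-end regions in general are wider. The size depends on what counts as a gene end or as called everywhere. It was 0.11 with gene ends within 500 bp, 0.26 within 2 kb and 0.49 with regions called in the 11 libraries other than Wt replicate 1.

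Whether the members are wider in EF than in Wt cells could not be shown. The median width averaged 812 ± 209.8 bp in EF and 718 ± 274 bp in Wt (SD, n = 4 each), a difference of 0.23 on the log2 scale that lay within the spread of the libraries (p = 0.571 in an exact permutation test, two-sided, where 4 against 4 allows no p below 0.0286). On flowcell BSF_1013 the means were 963.5 ± 153 bp in EF and 777 ± 215 bp in Wt (n = 2 each), and on BSF_0654 660.5 ± 129 bp in EF and 659.5 ± 407 bp in Wt. Leaving out Wt replicate 1 turned the difference to -0.05. Relative to the other regions called in all libraries, the ratio was 1.151 ± 0.017 in EF and 1.141 ± 0.049 in Wt, a log2 difference of 0.01 (exact permutation test, p = 0.83). That difference was 0.07 on BSF_1013 and -0.04 on BSF_0654, and -0.02 without Wt replicate 3.

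At single regions no width difference between EF and Wt passed. In limma on log2 width, with each library centred on its median over all regions called everywhere and flowcell as a term, 0 of 5784 regions (0%) had an adjusted p under 0.05 (Benjamini-Hochberg over all 5784). At an unadjusted p under 0.05 there were 319 regions (5.52%), of which 91 members were wider and 116 narrower in EF. The middle 90% of the members' log2 differences ran from -0.36 to 0.37, with a median of -0.01 and a median standard error of 0.19. Without centring, the median log2 difference of all regions was 0.22, in place of -0.02, and 22 members were wider and 3 narrower at that unadjusted threshold.

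The members with the smallest p for a narrower region in EF are given with their intervals. At Rab3gap2, a subunit of the complex that regulates the GTPase Rab3 (chr1:185203140-185204677), the width was 534, 292, 515 and 767 bp in EF and 493, 1025, 894 and 1175 bp in Wt. The groups overlapped in bp through Wt replicate 1, whose regions were narrow throughout; relative to the library medians the log2 difference was -1.01 (95% interval -1.38 to -0.64, limma adjusted p = 0.109). The Wt_IGF1 library, with 1059 bp, lay among the wider Wt libraries, EF_IGF1 had 868 and 723 bp and EF_IGF1_xeno 555 bp. At Aph1c, of the gamma-secretase that cuts Notch (chr9:66834458-66835448), EF had 331, 200, 410 and 658 bp and Wt 413, 830, 781 and 937 bp, a difference of -1.19 (-1.68 to -0.70, adjusted p = 0.237). Saysd1 (-1.03) had an adjusted p of 0.256, and Ern1 (-0.75), the IRE1 sensor of unfolded proteins, one of 0.27.

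In the other direction the smallest p was at Lrrc75a with Mmgt2 (chr11:62648202-62649461). EF had 791, 554, 677 and 795 bp there, and Wt 244, 725, 244 and 336 bp, a log2 difference of 0.77 (95% interval 0.41 to 1.14, limma adjusted p = 0.27). EF_IGF1_xeno, with 747 bp, and EF_IGF1, with 761 and 726 bp, lay in the EF range, and Wt_IGF1, with 322 bp, among the Wt libraries; Wt replicate 2 overlapped EF. At Nek7, a kinase of mitosis and of the NLRP3 inflammasome (chr1:138619009-138620342), EF had 870, 788, 1080 and 1308 bp and Wt 227, 882, 277 and 842 bp (0.86, 0.39 to 1.34, adjusted p = 0.441). Btbd19 (0.89), Eci1 (0.66), an enzyme of fatty acid oxidation, and Tef (0.64), a transcription factor of the clock output, each had an adjusted p of 0.573. None of these 9 regions passed, and they are named as the extremes of a test that called nothing.

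**Figure D5:**
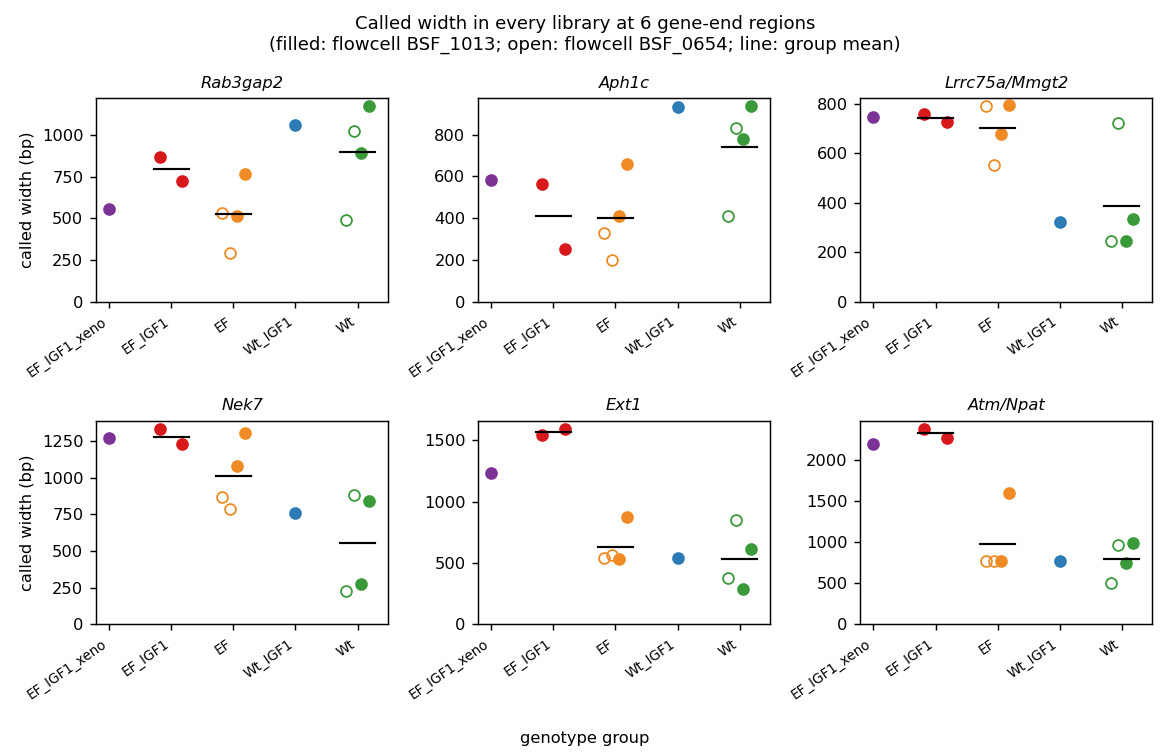
Called width (y axis, bp) in every library by genotype group (x axis) at 6 members: Rab3gap2 and Aph1c, Lrrc75a/Mmgt2 and Nek7, and Ext1 and Atm/Npat; open points are flowcell BSF_0654, filled points BSF_1013 and lines the means of groups with more than 1 library. At Ext1 and Atm/Npat both EF_IGF1 libraries and EF_IGF1_xeno lie above all 4 EF libraries, and EF replicate 4 is the highest EF library at both.

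The comparison of EF_IGF1 with EF also called no region. In the same limma fit 0 of 5784 (0%) had an adjusted p under 0.05, and 153 (2.65%) had an unadjusted p under 0.05, of which 74 members were wider and 31 narrower. The smallest adjusted p of a member was 0.998. The middle 90% of the members' log2 differences ran from -0.34 to 0.47, around a median of -0.01, with a median standard error of 0.25. Without centring, the median log2 difference of all regions was 0.21, in place of -0.02. Both EF_IGF1 libraries were on flowcell BSF_1013, so the flowcell term rests on the other groups.

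The members with the smallest p for a wider region in EF_IGF1 are named as the extremes of a fit that called nothing. Their widths in bp include the level of each library, which centring takes out of the log2 differences. At Ext1, an enzyme that builds heparan sulphate (chr15:53345042-53346673), EF_IGF1 had 1546 and 1593 bp and EF 539, 563, 534 and 878 bp. Both EF_IGF1 values lay above all EF values, and the log2 difference was 1.16 (95% interval 0.59 to 1.72, limma adjusted p = 0.998, unadjusted p = 0.000563). EF_IGF1_xeno had 1237 bp, Wt_IGF1 543 bp and Wt 375, 848, 290 and 612 bp. The shared promoter of Atm, the kinase of the response to DNA breaks, and Npat, the activator of histone genes (chr9:53535625-53538016), had 2381 and 2271 bp in EF_IGF1 and 768, 769, 770 and 1595 bp in EF (0.90, 0.35 to 1.45). There EF_IGF1_xeno had 2193 bp, Wt_IGF1 773 bp and Wt 500, 964, 743 and 994 bp.

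Acvr1 with Upp2, where Acvr1 is a BMP receptor, had 1398 and 1499 bp in EF_IGF1 and 577, 516, 252 and 1035 bp in EF (1.42). Atg4d, a protease of autophagy, had 1019 and 1166 bp in EF_IGF1 against 426, 332, 548 and 632 bp in EF (0.83). EF replicate 4, of line S_221 and with the widest members of the EF group, had the highest EF value at all 4 of these regions. Narrower in EF_IGF1 were Rcan1, an inhibitor of calcineurin, with 628 and 623 bp in EF_IGF1 against 845, 465, 964 and 1188 bp in EF (-0.99), Ubxn2a (-1.39), Mlycd (-1.24), Pgbd5 (-0.80) and Cep295 (-0.64). At Rcan1 the groups overlapped in bp through EF replicate 2. So they did at Ubxn2a, with 217 and 582 bp in EF_IGF1 and 374 bp in EF replicate 2. At Mlycd EF_IGF1 had 518 and 202 bp, and EF replicate 2 had 243 bp. In both, 1 EF_IGF1 library lay near the smallest width of a list, 200 bp. With the line name as a block on flowcell BSF_1013 alone, a fit with 1 residual degree of freedom, limma called Ext1 as wider and Rcan1, Ubxn2a and Mlycd as narrower. That was 4 of the 4491 members tested. At an unadjusted p under 0.05 this block fit had 205 members wider and 192 narrower, against 74 and 31 in the fit of all 12 libraries. These 4 calls take EF_IGF1 replicate 1 as line S_220, the label in doubt. Without EF replicate 4 limma called Acvr1 with Upp2 as wider, which was 1 of the 4491 members. No other setting called a member in either comparison.

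The groups of 1 library allow no test. The Wt_IGF1 median member width was 856 bp, against 625 bp in Wt replicate 3, which shares its line name BM and its flowcell. EF_IGF1_xeno had 944 bp, against 1108 and 1064 bp in EF_IGF1. Relative to the other regions called everywhere these differences were small, with ratios of 1.14 in Wt_IGF1 against 1.07 in Wt replicate 3, and of 1.17 in EF_IGF1_xeno against 1.18 and 1.16 in EF_IGF1.

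Which members were wide was partly shared between libraries. Spearman's rho of called width over the 4491 members is given as a description, since members share libraries and depth. It was 0.485 to 0.715 between EF libraries (median 0.60), 0.265 to 0.791 between EF and Wt libraries (0.476) and 0.249 to 0.738 between Wt libraries (0.336). All 11 pairs with Wt replicate 1 had between 0.221 and 0.408. The closest were EF_IGF1 replicates 1 and 2 (0.869), EF_IGF1 replicate 2 with EF replicate 4 (0.863) and EF_IGF1_xeno with EF replicate 4 (0.846).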

How the data were processed

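Peak lists of 12 ATAC-seq libraries were used, 1 list per library, so the authors called peaks in each library. Per the submitters' processing notes the peak caller was MACS2, without a version, and the build GRCm38.p3. No source names the aligner, the filters on reads, a shift of reads, the caller's settings or a control. Per the file format, the deposited lists give each peak's position and summit, a fold over background (a ratio), the −log10 of its p-value and q-value and a score; −log10 p was used to rank peaks within a list and −log10 q to filter them in an alternative. Peaks off chromosomes 1 to 19 and X (23 to 43 per library) were dropped. Gene names, ends and promoters came from RefSeq tables of GRCm38.p6, whose chromosomes have the coordinates of p3.

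Peaks overlapping by at least 1 bp were merged (Python 3.11.15, pandas 2.3.3). Called width is the bp of a region covered by a library's peaks. Widths were tested with limma 3.58.1 in R 4.3.3, in 1 fit of 5 groups and flowcell. Benjamini-Hochberg adjustment was over 5784 regions, and the fit was first checked on simulated widths. That check gave all regions and libraries a common spread and read EF against Wt only. It does not cover uneven libraries or EF_IGF1 against EF. Library medians were tested by exact permutation (numpy 2.4.6). No test was made on calls, ranks, gene lists or motifs, apart from the check for values that lay apart from their group. Depth is unknown, since the lists give no read totals, and its part in the widths was not tested.

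The members, the gene lists and the alternatives were chosen with earlier results of these data known. The histone list was rewritten in the symbols of the annotation after the older symbols matched no gene. Named are the 10 members with the highest and the 5 with the lowest mean percentile, the 10 widest and 5 narrowest, the 5 with the smallest p in each direction of a comparison, up to 4 genes per list and 14 fixed genes, leaving out unnamed gene models; some of these appear only in counts or are not reported here. Printed promoters lie inside members, off chromosome 18.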

Additional observations from a re-analysis of the deposited data

Results flagged for a closer look

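In 94 groups of 4 libraries, 5 values lay apart from the other 3 of their group by Dixon's criterion at 95%; chance flags about 1 in 20 groups. In Wt replicate 1, 60.7% of the peaks lay in the gene-end regions called in all libraries, against 7.30% to 9.48% in the other 3 Wt libraries. This share is set by the rule, since every list had to hold the members and this list was the shortest. It is a description and not a result. EF replicate 4 stood above the other 3 EF libraries in called width at Pwwp2a (1072 bp, against 722 to 765 bp), at Ext1 (878 bp, against 534 to 563 bp) and at Atm with Npat (1595 bp, against 768 to 770 bp). EF replicate 2 stood below the others at Pgbd5 (364 bp, against 462 to 468 bp).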

How the results depend on the processing

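Members were 3974 to 4740 under other distances, peak thresholds and overlaps, and 4486 to 6909 leaving out each library in turn, with 6909 without Wt replicate 1. The log2 width difference of EF against Wt (0.23) was -0.0500 without Wt replicate 1 and -0.0633 with the regions of the other 11 libraries, and -0.0633 to 0.399 over all settings that left out a library. Relative to the other regions (0.01) it turned to -0.0439 on flowcell BSF_0654, to -0.0175 without Wt replicate 3 and to -0.00522 with gene ends within 500 bp, and lay between -0.0175 and 0.0299 leaving out each library. Against the other regions the members stayed wider in all 18 alternatives, by 0.200 to 0.490 leaving out libraries. The count of members called in EF against Wt was 0 in all 16 alternatives (0 to 0 leaving out libraries). In EF_IGF1 against EF it was 4 with the line name as a block and 0 to 1 leaving out libraries (1 without EF replicate 4), and 0 in the other 12. The causes were not tested.

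EF_IGF1 and EF are paired by the line names S_220 and S_221 on flowcell BSF_1013. The paired fit is the one with the line name as a block, which called 4 of 4491 members. For EF against Wt, no paired analysis was possible because these groups share no line name and their replicate numbers only name libraries. Depth is unknown, the lists hold no signal outside peaks, and widths cannot fall below 200 bp, so small differences in width at narrow regions were not detectable.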

Other observations

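Several of the genes followed whatever their values lay just outside the members. The region at the Cdkn2a start, which encodes inhibitors of the cell cycle, had no call in EF_IGF1_xeno, in EF_IGF1 replicates 1 and 2 or in EF replicates 2 and 4. It was 843 and 709 bp wide in EF replicates 1 and 3, 1170 bp in Wt_IGF1 and 234, 1188, 668 and 987 bp in Wt, so that even the shortest list held it. The Yap1 start region was 1877 bp wide in EF_IGF1_xeno, 2321 and 2159 bp in EF_IGF1, 753, 761, 1047 and 1783 bp in EF, 1106 bp in Wt_IGF1, and 521 and 1068 bp in Wt replicates 3 and 4, with no call in Wt replicates 1 and 2. The Wwtr1 start, of the YAP1 paralogue TAZ, lacked calls in the same 2 libraries, and Tead1 in EF replicate 2 and Wt replicate 1. The region nearest the Igf1 start was called in EF replicate 1 (200 bp) and Wt replicate 2 (1164 bp) alone.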
